A study of Rattus norvegicus with 9 samples.

Results

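The loci described here are rat genes, or stretches of overlapping genes, for which the reference annotation lists 4 or more transcripts. Reference transcript identifiers were grouped where they lay in the same deposited gene row in at least 5 of the 9 libraries, and 822 of 29322 loci held 4 or more of them. These 822 loci carry 4054 of the 39492 reference transcripts: 455 loci have 4, 183 have 5, 91 have 6, 43 have 7, 18 have 8, 11 have 9, 19 have 10, 1 has 11 and 1 has 28. No level was used as a criterion for the loci. The gene rows come from each library's own assembly, however, so the reads can bear on which transcripts were joined. At 792 of the 822 loci every pair of transcripts shared a row in all 9 libraries. The files pair 184 of them with a gene symbol and 23 with a gene identifier only. The remaining 615 are called by their position on rat genome build rn4.

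RNA sequencing was carried out on heart muscle of Sprague-Dawley rats in 3 groups of 3 libraries. The TAC group is left ventricle of adults whose aorta had been constricted (transverse aortic constriction, TAC), where the narrowed vessel makes the ventricle pump against high pressure and thicken. The Sham group is the same tissue of adults operated on without constriction, and the fetal group is ventricle at embryonic day 18. The study asks whether hypertrophy brings back the splice forms of the fetal heart. Adult RNA was isolated with a column kit (Qiagen RNeasy Fibrous Tissue) and fetal RNA with Trizol, so age, heart region and isolation cannot be told apart in any fetal comparison. The fetal titles number the libraries as litters. For the adults, separate animals are not stated, so the p-values measure the spread between these samples, which may be technical.

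A gene can yield several messenger RNAs by starting transcription at another promoter, by skipping or including exons, or by ending at another polyadenylation site. In the heart, such choices change around birth in proteins of the sarcomere, the ion channels and the cytoskeleton. Short reads seldom cover a whole transcript, so the software divides the reads of a locus among its transcripts by a statistical model. Each locus was described in 3 ways. Its level is the summed FPKM (fragments per kilobase of transcript per 1000000 fragments) of all its transcripts, rescaled so that libraries can be compared. A transcript's share is its percentage of that sum. Shannon entropy, in bits, is 0 when 1 class holds the whole sum and rises as the sum is spread evenly over more classes. Transcripts that the assembly added beside the reference were pooled as 1 class.

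Grb10 and Postn were higher in fetal than in Sham ventricle, and Rcan2 was lower. Abcb9 was lower too, at a locus that entered the test only through its adult values, so it had to differ. The promoter stretches of these 4 genes are printed to show how much the annotated starts of such loci differ in base composition. Each runs from 250 bases before to 50 bases after the gene start, is written 5′ to 3′ on the gene's strand, and comes from RefSeq on build GRCr8. Capitals mark the dinucleotide CG, and in Postn also the TATA box letters TATAAA.
Grb10, chr14:90816338-90816637, minus strand: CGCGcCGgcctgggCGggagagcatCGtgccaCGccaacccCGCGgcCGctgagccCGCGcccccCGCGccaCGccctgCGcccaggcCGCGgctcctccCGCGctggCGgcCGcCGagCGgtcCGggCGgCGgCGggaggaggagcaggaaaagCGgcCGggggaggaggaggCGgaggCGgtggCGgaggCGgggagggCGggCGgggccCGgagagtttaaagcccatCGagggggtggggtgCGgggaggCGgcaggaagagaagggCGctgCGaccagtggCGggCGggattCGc
Postn, chr2:140677811-140678110, plus strand: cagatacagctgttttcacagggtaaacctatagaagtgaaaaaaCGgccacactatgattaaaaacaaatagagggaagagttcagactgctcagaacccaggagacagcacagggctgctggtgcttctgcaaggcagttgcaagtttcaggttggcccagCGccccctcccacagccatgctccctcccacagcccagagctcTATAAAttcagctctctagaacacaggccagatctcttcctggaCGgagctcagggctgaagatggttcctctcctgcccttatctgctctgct
Rcan2, chr9:24672140-24672439, minus strand: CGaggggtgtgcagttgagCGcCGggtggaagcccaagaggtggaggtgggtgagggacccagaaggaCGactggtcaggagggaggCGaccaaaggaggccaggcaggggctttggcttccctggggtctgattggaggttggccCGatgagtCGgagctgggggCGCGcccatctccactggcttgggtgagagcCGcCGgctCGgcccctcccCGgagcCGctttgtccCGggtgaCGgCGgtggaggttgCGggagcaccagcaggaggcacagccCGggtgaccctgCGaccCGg
Abcb9, chr12:38159902-38160201, plus strand: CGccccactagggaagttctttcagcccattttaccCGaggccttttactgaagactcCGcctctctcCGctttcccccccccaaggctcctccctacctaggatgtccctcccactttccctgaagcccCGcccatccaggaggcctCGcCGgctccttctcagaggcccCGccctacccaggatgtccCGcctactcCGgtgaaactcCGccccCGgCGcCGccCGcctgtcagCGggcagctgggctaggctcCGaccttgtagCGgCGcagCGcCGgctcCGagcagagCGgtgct
The Grb10 stretch holds 44 CG, the Abcb9 stretch 23, the Rcan2 stretch 21 and the Postn stretch 3. The median was 7 CG over the 33469 promoters in the table and 20 over the 61 symbol-bearing loci that had a promoter there and were tested for level. The 33469 were not picked for a symbol or a tested level, and loci with fewer transcripts were not set apart. Whether the number of transcripts has a part in this gap was not tested. TATAAA, searched on both strands, lay in 5 of these 61 stretches (8.20%) and in 14.2% of all promoters of the same length. A match is a description of letters at 1 annotated start per gene, and the other starts of these loci are not covered by it.

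The marker genes of heart muscle that the files name, Actc1 and Mb, had a summed level of 41060 to 45730 in Sham libraries and of 14642 to 136730 in fetal libraries, where 1 of the 2 was lower by limma. Macrophage markers were lower in fetal libraries (6 of 6 passed the test; summed level 57.8 to 68.1 against 274 to 506 in Sham), as were 3 of 5 lymphocyte markers (4.48 to 5.07 against 49.1 to 69.4), 3 of 5 endothelial markers (126 to 224 against 217 to 332) and 1 of 3 neural markers (5.90 to 6.97 against 5.43 to 18.4), and so were 4 of 5 fibroblast markers (358 to 567 against 996 to 1438). Smooth muscle markers were higher (2 of 3; 1563 to 1917 against 129 to 319), and so were both epicardial markers that could be measured (29.5 to 40.8 against 5.52 to 6.61). Of the atrial and conduction markers 3 of 4 (1256 to 2502 against 159 to 627) and of the erythroid markers 1 of 4 (16985 to 27152 against 5005 to 12515) were higher as well. None of these markers passed the test between TAC and Sham by limma. The summed levels of TAC and Sham overlapped for each cell type, though those of the atrial and conduction markers ran from 425 to 2903 in TAC. The part of these cell types in the results that follow was not tested, and in whole tissue fewer cells of a type and less RNA per cell cannot be told apart. Fragment numbers implied by the deposited confidence bounds ran from 6.37 to 25.75 (in units of 1000000) per library, and they were lowest in TAC. Replicate 1 of every group stood apart in that its shortest assembled feature was 43 nt, against 63 nt in the other 6 libraries.

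Loci with 4 or more transcripts were long and well expressed. Their median span was 63.97 kb, against 41.1 kb at loci with 3 transcripts, 26.5 kb at loci with 2 and 1.63 kb at loci with 1. Their median level over the 9 libraries was 14.7, against 11.3, 9.20 and 0.137. The number of transcripts listed was not the number detected. Of the 4054 transcripts, 1673 (41.3%) were listed at 0 in all 9 libraries and 150 were above 0 in all 9. Among loci with a mean level of at least 3, transcripts at 0 in every library made up 40.8% at loci with 4 or more, 26.8% at loci with 3, 19.0% at loci with 2 and 1.95% at loci with 1.

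Within 1 library the median number of reference transcripts above 0 per locus was 1. At the 609 loci with a mean level of at least 3, exactly 1 reference transcript was above 0 in 41.4% to 45.5% of the loci measured per library, and 3 or more were above 0 in 5.27% to 11.6%. In 22.6% to 30.1% no reference transcript had a value and the whole level lay on assembled transcripts. The median share of the assembled class was 48.6% to 60.3%. The same ranges held in Sham, TAC and fetal libraries, whose values overlapped in each of these quantities. The deposited lower confidence bound was 0 for 19.8% to 30.2% of the member transcripts with a value, against 15.5% to 22.3% at loci with 1 transcript.

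Pairs of reference transcripts with the same ends and the same length show how far a share can be resolved. There were 87 such pairs, in 78 loci. In 29 pairs both members were at 0 throughout, in 15 only 1 member ever had a value, and in 43 both did. Of these 43, 8 pairs never had both members above 0 in the same library. For such pairs the files give no length by which reads could be assigned to either member.

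The spread of expression over transcripts, taken as the median entropy of the loci in a library, was 0.843, 0.80 and 0.789 bits in Sham replicates 1 to 3. It was 0.809, 0.789 and 0.738 bits in TAC and 0.833, 0.810 and 0.799 bits in fetal libraries. The groups overlap, and fetal minus Sham was 0.0034 bits (p = 0.9, exact permutation test, two-sided), TAC minus Sham -0.032 bits (exact p = 0.5) and fetal minus TAC 0.035 bits (exact p = 0.2). With 3 libraries against 3 this test cannot give a p below 0.1. These medians count the pooled assembled class beside the reference transcripts. With reference transcripts only, their mean was 0 bits in each group. With reference transcripts that the assembly had extended moved into the assembled class, it was 0.137 bits in Sham, 0.173 in TAC and 0.171 in fetal libraries. Loci with 3 transcripts had medians of 0.716 to 0.791 bits. At loci with 2 transcripts the median was 0 in 7 libraries and 0.607 and 0.599 bits in fetal replicates 2 and 3.

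**Figure D1:**
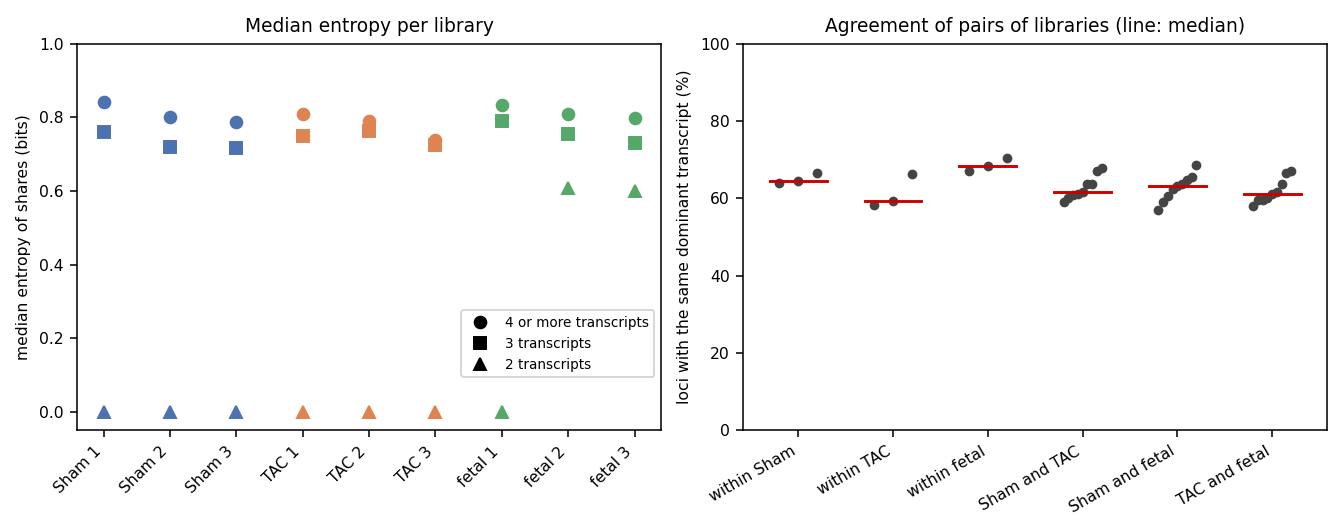
Left, median Shannon entropy in bits for each of the 9 libraries (points) at loci with 4 or more, 3 and 2 reference transcripts; right, percentage of loci with the same dominant transcript in each pair of libraries (points), by kind of pair, with the median as a line. At loci with 4 or more transcripts the 3 groups overlap between 0.738 and 0.843 bits, and the medians for pairs of libraries lie between 59.4% and 68.3%.

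The dominant transcript, that is the reference transcript with the highest value in a library, was often not the same in the next library. A reference value was present in all 9 libraries at 247 loci, and the same transcript was dominant in all 9 at 73 of them (29.6%). The share was 38.7% of 455 loci with 3 transcripts and 57.7% of 1474 loci with 2. At 85 loci (34.4%) 3 or more transcripts took the lead in turn. The share with 1 dominant transcript was 14.0% of 57 loci with a mean level below 10, 31.9% of 119 with a mean of 10 to 50 and 38.0% of 71 with a mean of 50 or more.

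The dominant transcript changed between libraries of 1 group as well as between groups. Between 2 libraries of the same group, the dominant transcript was the same at a median of 64.6% of loci in Sham (63.9% to 66.5%), 59.4% in TAC (58.2% to 66.4%) and 68.3% in fetal (67.0% to 70.5%). Between a Sham and a TAC library the median was 61.6% (59.0% to 67.8%), between Sham and fetal 63.3% (56.9% to 68.5%) and between TAC and fetal 61.2% (58.1% to 67.1%). The ranges between groups overlap each of the ranges within Sham, TAC and fetal, while the range within fetal lay above those within Sham and within TAC. A pair had 353 to 397 loci. These pairs share libraries, so no test was made.

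Named loci with 1 dominant transcript throughout and a mean level of at least 10 were 17. They include Rcan2, a regulator of the phosphatase calcineurin, and Grb10, an adaptor that binds the insulin receptor. Masp1 (a protease of the lectin complement pathway), Mfge8 (a secreted protein that bridges dying cells and phagocytes), Cxcr4 (a chemokine receptor), Schip1 (a partner of the membrane scaffold protein schwannomin) and Clta (a light chain of the clathrin coat) were also among them. The others were Mrpl1, Aldh3a2, Gpm6b, Strn3, Cyb5r4, Dnajc8, Sra1, Adam15, Gpr137 and Ap1s2. At Masp1 the entropy was 0 in all 9 libraries, that is, 1 transcript held the whole level in each. Among all 600 loci tested for entropy, 18 had an entropy of 0 in all 9 libraries. At such a locus the class with the whole level can be the pooled assembled one, as at chr1:212876675-212935373.

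Among loci with a symbol and a mean level of at least 10, the highest mean entropy was at Kcnip2_v2, Rtn4, Atp2b1, Q5XIE7_RAT and Clcc1, and the lowest at Masp1, Gga3, Cyb5r4, Ap1s2 and Cxcr4. Atp2b1 is a plasma membrane calcium pump and Clcc1 a chloride channel of the endoplasmic reticulum. The entropy of Atp2b1 was 1.58, 0.978 and 1.91 bits in Sham, 0.691, 1.37 and 1.55 in TAC and 1.11, 1.36 and 0.903 in fetal libraries. Clcc1 gave 1.53, 1.58 and 0.996 bits in Sham, 0.939, 1.58 and 1.40 in TAC and 0.999, 1.81 and 1.49 in fetal libraries. At both genes the groups overlap.

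Only 2 of the 247 loci (0.81%) had 1 dominant transcript in all fetal libraries and another in all adult ones, against 0.659% at loci with 3 transcripts and 0.882% at loci with 2. No locus with 4 or more transcripts separated TAC from Sham in this way. The first of the 2 is an unnamed locus with 8 transcripts (chr5:23337889-23557747). ENSRNOT00000047805 held 84.0%, 100% and 79.7% of it in Sham and 100%, 100% and 72.3% in TAC, and was at 0 in all fetal libraries. ENSRNOT00000010244, which spans the whole locus, was at 0 in all adult libraries and held 23.8%, 28.9% and 41.8% in fetal ones. The assembled class held the rest of the fetal level, 76.2%, 71.1% and 58.2%. The level of this locus was lower in fetal ventricle, 15 ± 3.29 (SD, n = 3) against 214 ± 42.8 in Sham and 190 ± 10.9 in TAC. The log2 difference from Sham was -3.75 ± 0.20 (SE; limma adjusted p = 4.88e-06).

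The second is an unnamed locus with 4 transcripts (chr2:232942525-232971639). Its level was similar in the groups, 262 ± 34.1 (SD, n = 3) in Sham, 312 ± 54.7 in TAC and 304 ± 41.1 in fetal libraries. ENSRNOT00000051335 was dominant in adults with 75.6%, 70.1% and 35.0% in Sham and 42.3%, 76.2% and 52.3% in TAC. ENSRNOT00000066204 was dominant in fetal libraries with 49.3%, 33.8% and 56.1%, and among adults it had a value in Sham replicate 3 alone (14.5%). Its share differed by 5.91 ± 1.54 (log2, SE) from Sham without passing the test (limma adjusted p = 0.113), and from TAC it passed (limma adjusted p = 0.0328, 0.0819 with the replicate block).

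Shares were tested for 1142 transcripts in 557 loci, as the log2 ratio of a transcript to the rest of its locus. Between fetal and Sham ventricle 28 passed the test (2.45%; 12 higher and 16 lower in fetal, in 19 loci), where 1.53% of all 6457 transcripts tested passed. Between fetal and TAC 38 passed (3.33%; 17 higher and 21 lower, in 27 loci), against 1.95% of all. Between TAC and Sham 1 passed (0.0876%), against 0.0465% of all. At an unadjusted p below 0.05 the counts were 171 (15%), 188 (16.5%) and 74 (6.48%), where 13.6%, 15.1% and 5.79% of all transcripts tested fell below it. Both fetal comparisons share the fetal libraries and are therefore given side by side. Of the 28 fetal against Sham, 25 were transcripts listed at 0 throughout 1 of the 2 groups, 22 lay in loci that also differed in level, and 15 lay in loci below 3 in at least 1 library. By construction, the ratio of a transcript at 0, or of one that holds the whole level, moves with the level of its locus.

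These counts depended on single choices. With the replicate number as a block, 1 transcript passed in each comparison. With extended entries counted apart from their reference transcript 17, 20 and 2 passed for fetal against Sham, fetal against TAC and TAC against Sham. With a level of at least 3 required in every library, a choice made after seeing the data, 2, 3 and 1 passed. Over all transcripts tested, 1, 2 and 2 passed with the block and 91, 107 and 7 with extended entries apart. With that level required 11, 16 and 3 of all passed.

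**Figure D2:**
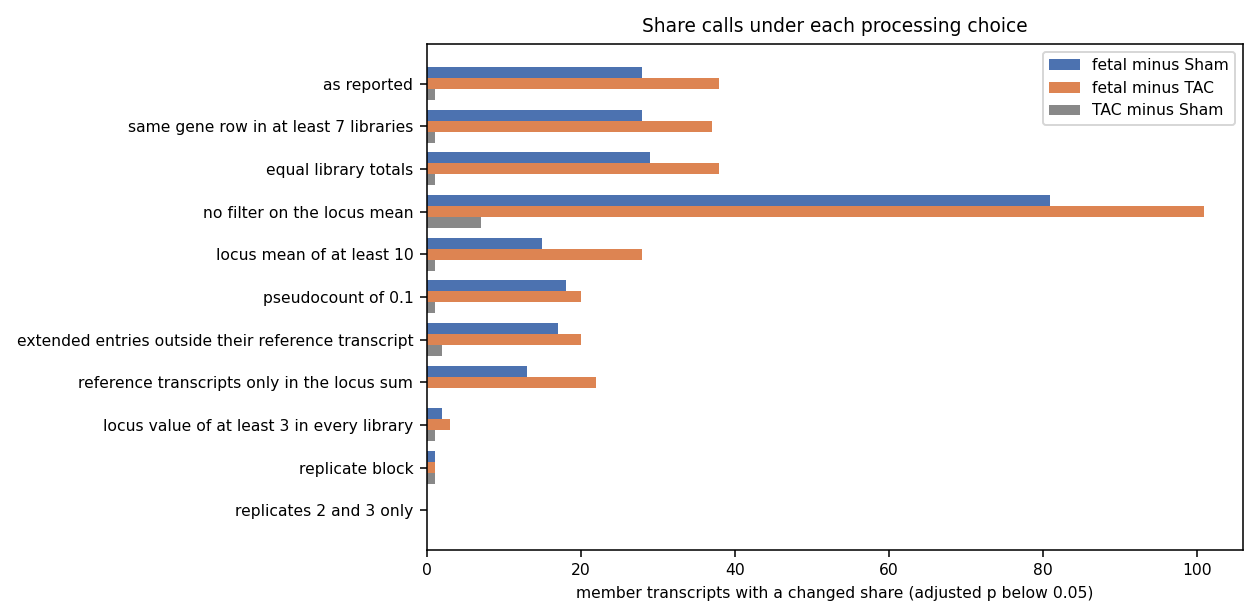
Number of transcripts of the 822 loci whose share passed an adjusted p of 0.05 (limma) under each processing choice, by comparison. Fetal against Sham falls from 28 to 1 with the replicate block and to 0 with replicates 2 and 3 only, and TAC against Sham lies between 0 and 7 under every choice shown.

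Among the named transcripts, the share difference that passed under the most settings (16 of 18 for fetal minus Sham) was at Rtn4. Rtn4 encodes the reticulons known as Nogo, proteins that shape the tubules of the endoplasmic reticulum and, in nerve, limit axon growth. The locus (chr14:110725066-110772581, 6 transcripts) had a level of 215, 291 and 263 in Sham, 203, 229 and 219 in TAC and 235, 197 and 186 in fetal libraries. These levels overlap (log2 difference fetal minus Sham -0.31 ± 0.16 SE, limma adjusted p = 0.139).

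The short Rtn4 transcript ENSRNOT00000042965 (1521 nt, chr14:110750651-110772581) held 62.0%, 50.3% and 80.3% of the locus in Sham and 65.6%, 70.4% and 74.8% in TAC. It was listed at 0 in all 3 fetal libraries, so adult and fetal libraries do not overlap and it was the largest share in every adult library. The log2 ratio was -8.60 ± 0.78 (SE) in fetal minus Sham (limma adjusted p = 0.00615) and -8.93 in fetal minus TAC (limma adjusted p = 0.00219). With the replicate block the adjusted p was 0.045 and 0.0169. Without fetal replicate 3 it was 0.0523 against Sham, and with replicates 2 and 3 only it was 0.163 and 0.111. In 6 libraries this transcript was listed in a form extended by the assembly, and with such entries counted apart it did not enter the test.

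The longer Rtn4 transcript ENSRNOT00000051817 (4059 nt, chr14:110725975-110772581) showed the opposite pattern. It held 62.9%, 37.4% and 42.6% in fetal libraries and was listed at 0 in all 6 adult libraries. The log2 ratio in fetal minus Sham was 7.86 ± 1.13 (SE; limma adjusted p = 0.0218). With the replicate block the adjusted p was 0.0946, and in the runs that each leave out 1 library it ranged from 0.0245 to 0.103 and missed the threshold in 6 of 9. The shares of both other Rtn4 transcripts with values in adults and fetal libraries overlapped between them. ENSRNOT00000006443 held 6.87% to 13.4% in adults and 9.55%, 33.2% and 57.4% in fetal libraries (adjusted p = 0.341 by limma). ENSRNOT00000006957 held 11.8% to 29.3% in adults and 27.6%, 29.4% and 0% in fetal libraries.

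**Figure D3:**
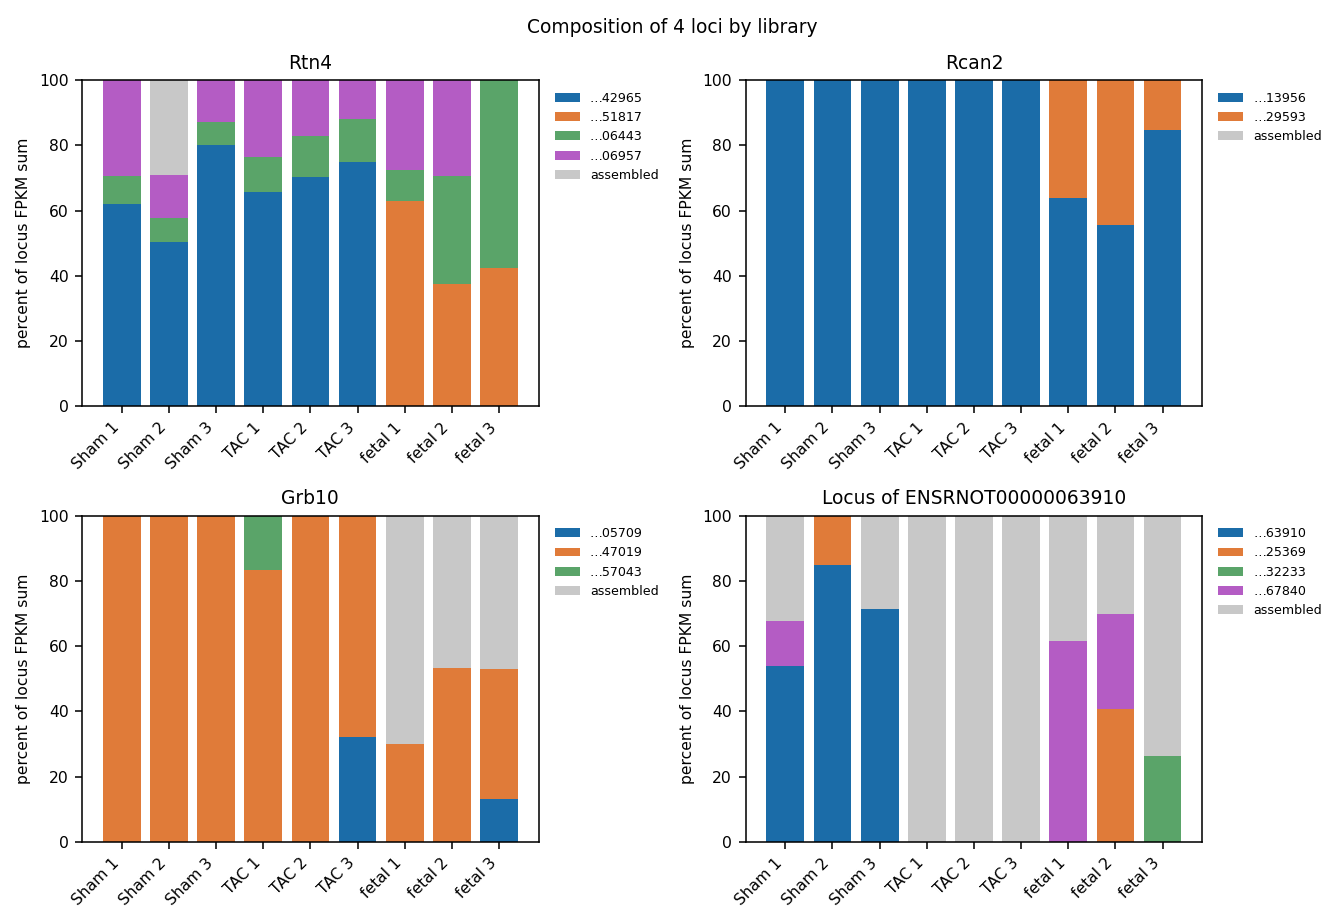
Stacked shares (percent of the locus level) of the reference transcripts, with assembled transcripts in grey, in each of the 9 libraries at Rtn4, Rcan2, Grb10 and the locus of ENSRNOT00000063910. At Rtn4 the adult libraries carry 50.3% to 80.3% of ENSRNOT00000042965 and the fetal libraries carry 37.4% to 62.9% of ENSRNOT00000051817.

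Rcan2 passed the test in level, in share and in entropy, the last 2 not under every setting. The locus (chr9:12623123-12718171, 4 transcripts) had a level of 326, 407 and 353 in Sham, 363, 412 and 356 in TAC and 67.6, 83.9 and 90.3 in fetal libraries. All fetal values lay below all adult ones, and the log2 difference from Sham was -2.16 ± 0.15 (SE; limma adjusted p = 1.71e-05). ENSRNOT00000013956 held 100% in all 6 adult libraries and 63.8%, 55.6% and 84.9% in fetal ones (adjusted p = 0.0317 by limma). ENSRNOT00000029593 (2980 nt) held the remainder, 36.2%, 44.4% and 15.1%, and was at 0 in adults (adjusted p = 0.0385 by limma). With the replicate block these were 0.109 and 0.111. Leaving out 1 library at a time ended the 2 calls in 6 and 7 of 9 runs. In adults 1 transcript held the whole level and the other was at 0, so both ratios also move with the level. ENSRNOT00000013956 was listed in its extended form in all 9 libraries, and counted apart it did not enter the test. The entropy was 0 in all adult libraries and 0.945, 0.991 and 0.613 bits in fetal ones (adjusted p = 0.0351 by limma, 0.197 with the replicate block and 0.344 with extended entries apart). Leaving out 1 library at a time ended the entropy call in 6 of 9 runs.

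The Grb10 locus passed the test in level, and none of its transcripts passed in share. Grb10 (chr14:92814797-92911442, 4 transcripts) had a level of 34.0, 23.7 and 26.6 in Sham, 45.8, 31.4 and 23 in TAC and 517, 427 and 507 in fetal libraries. The fetal values do not overlap the adult ones, and the log2 difference from Sham was 4.07 ± 0.24 (SE; limma adjusted p = 7.85e-06). ENSRNOT00000047019 was the dominant reference transcript in all 9 libraries. Its share was 100% in Sham, 83.3%, 100% and 68.0% in TAC and 30%, 53.3% and 39.9% in fetal libraries. That difference from Sham did not pass the test (adjusted p = 0.058 by limma). The assembled class was at 0% in all adult libraries and held 70.0%, 46.7% and 46.9% in fetal replicates 1 to 3.

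The 1 transcript that passed between TAC and Sham was ENSRNOT00000063910, at an unnamed locus with 5 transcripts (chr3:4493828-4520794). It held 53.8%, 85.0% and 71.5% in Sham and was listed at 0 in all TAC and all fetal libraries. In TAC the assembled class held 100% in each library, while the level of the locus was 259, 273 and 343 in Sham and 297, 354 and 297 in TAC. The log2 ratio was -9.64 ± 0.90 (SE; limma adjusted p = 0.00371, 0.0336 with the replicate block). With reference transcripts only in the sum the adjusted p was 0.874, without Sham replicate 2 it was 0.0582, without Sham replicate 3 it was 0.0671 and with replicates 2 and 3 only 0.155. In fetal libraries the level of the locus was 14.2, 17.3 and 20.7, lower than in Sham (log2 -4.0 ± 0.17 SE, limma adjusted p = 2.28e-06).

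Other unnamed loci separated fetal from adult libraries. ENSRNOT00000064869 (chr5:172745715-172749571) held 100%, 66.5% and 100% in Sham, 100% in each TAC library and 0% in each fetal library, at locus levels of 5.16 to 11.6. ENSRNOT00000061657 (chr7:2230747-2269396) held 100% in all adult libraries and 50%, 37.3% and 12.8% in fetal ones, where the level of the locus was 1.81 to 3.62 against 137 to 168 in adults. That locus met the filter on its mean through the adults alone. With a pseudocount of 1 its ratio also falls with the level, so its pass cannot be read as a change of composition alone. ENSRNOT00000026752 (chr5:172782355-172796391) was at 0 in adults and held 53.4%, 22.6% and 36.5% in fetal libraries, at levels of 51.3 to 93.9 in all groups. The shares of all 3 do not overlap between fetal and adult libraries. With the replicate block the adjusted p of the first was 0.104, of the second 0.0946 and of the third 0.109, by limma. With extended entries apart it was 0.515 for the first and 0.344 for the third, and the second did not enter the test.

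ENSRNOT00000058349 (chr7:131726969-131761134) did not split by age. It held 100% in each Sham library, 47.2%, 63.3% and 48.3% in TAC and 52.8%, 44.5% and 43.9% in fetal libraries, at levels of 10.2 to 18.0. Against Sham, the fetal difference passed (adjusted p = 0.0476 by limma, 0.133 with the replicate block and 0.86 with extended entries apart). The TAC difference did not (adjusted p = 0.294). ENSRNOT00000019772 (chr9:70702181-70771155) was at 0 in adults and held 73.6%, 48.7% and 62.3% in fetal libraries (adjusted p = 0.0287 by limma, 0.109 with the replicate block). Its direction turned when extended entries were counted apart. ENSRNOT00000064239 (chr3:108112281-108151558) held 81.8% and 52.6% in Sham replicates 1 and 3, 19.0% to 24.4% in TAC and 0% in fetal libraries. In Sham replicate 2 that locus was listed at 0 and has no share (adjusted p = 0.0458 by limma for fetal minus Sham, 0.128 with the replicate block and 0.453 with extended entries apart). ENSRNOT00000003813 (chr10:8213474-8561580) was at 0 in adults and held 47.6%, 100% and 0% in fetal libraries, where the locus was at 0.239 to 0.319 against 30.7 to 49.2 in adults. The locus met the filter on its mean through the adults alone, and with a pseudocount of 1 its ratio follows the fall in level, so its pass shows no change of composition. With the replicate block it did not pass (adjusted p = 0.0946 by limma).

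Against TAC alone, the named-transcript rule added 6 transcripts that did not pass against Sham. Fam63a, an enzyme that removes ubiquitin, had ENSRNOT00000056380 (chr2:190193632-190206093) at 72.3%, 85.2% and 100% in fetal libraries, 0% in all TAC and 0%, 69.0% and 41.4% in Sham (adjusted p = 0.0393 by limma for fetal minus TAC and 0.265 for fetal minus Sham). ENSRNOT00000047805 at the first switching locus passed against TAC (adjusted p = 0.0406 by limma) and not against Sham (0.0927). ENSRNOT00000040440 (chr6:122919411-122956935), ENSRNOT00000027957 (chr10:90343493-90403485) and ENSRNOT00000032213 (chr12:19716015-19752171) were higher in fetal libraries, with shares of 70.1% to 100%, 89.5% to 100% and 41.2% to 100% there. ENSRNOT00000058108 (chr8:67313468-67540055) was at 0 in fetal libraries and held 35.5% to 100% in TAC. All 6 missed the threshold with the replicate block (limma adjusted p of 0.0653 to 0.084). With extended entries apart the limma adjusted p of ENSRNOT00000027957 was 0.741. That of ENSRNOT00000040440, ENSRNOT00000058108 and ENSRNOT00000032213 was 0.0385 to 0.0403, and the others did not enter the test. Leaving out 1 library at a time ended the call of ENSRNOT00000027957 in all 9 runs and that of the other 5 in 7 of 9.

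Entropy was tested at 600 loci. Between fetal and Sham ventricle 9 passed (1.5%; 6 higher and 3 lower in fetal), where 0.72% of all 4164 loci tested passed. Between fetal and TAC 9 passed (1.5%; 5 higher and 4 lower), against 0.961% of all. Between TAC and Sham 3 passed (0.50%; 2 higher and 1 lower in TAC), against 0.288% of all. At an unadjusted p below 0.05 the counts were 64 (10.7%), 66 (11%) and 40 (6.67%), where 8.43%, 8.50% and 5.62% of all loci tested fell below it. Each of these loci had 1 group with an entropy of 0 in all 3 libraries. None passed with the replicate block.

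Beside Rcan2, the named genes among them were Hspb11 and Eml4. Hspb11 encodes a component of the transport trains in cilia. Its entropy was 1.38, 0.956 and 1.36 bits in Sham, 1.46, 1.58 and 0.995 in TAC and 0 in every fetal library (adjusted p = 0.0351 by limma, 0.197 with the replicate block). Eml4, a microtubule-binding protein, had 1.75, 1.46 and 1.49 bits in Sham, 0.875, 0.830 and 0 in TAC and 0 in every fetal library (fetal minus Sham -1.57 bits, adjusted p = 0.0368 by limma, 0.165 with the replicate block). At neither gene did 1 reference transcript hold the level in every fetal library. The assembled class held 100%, 0% and 100% of Hspb11 and 0%, 100% and 100% of Eml4 in fetal replicates 1 to 3. With extended entries apart the adjusted p by limma was 0.769 at Hspb11 and 0.0736 at Eml4. The level of Hspb11 did not separate the groups, at 8.34 ± 4.66 (SD, n = 3) in Sham and 6.95 ± 2.42 in fetal libraries. That of Eml4 rose from 8.27 ± 0.294 in Sham to 23.6 ± 0.753 in fetal libraries.

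The 3 loci that passed between TAC and Sham are unnamed. At chr5:80382665-80464817 the entropy was 0 in all Sham and fetal libraries and 0.999, 0.729 and 0.872 bits in TAC. At chrX:127687348-127744248 it was likewise 0 and 0.956, 0.884 and 0.953 bits. At chr8:19927966-19973256 it was 0.656, 0.80 and 0.819 bits in Sham and 0 in TAC and fetal libraries. The adjusted p was 0.0327 by limma at each, and 0.255 with the replicate block. At all 3 the assembled class held 100% wherever the entropy was 0.

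The level of a locus was tested at 678 of the 822 loci, of which 102 have a symbol. Between fetal and Sham ventricle 344 passed (50.7%), where 45.4% of all 14191 loci tested passed. The 344 were 176 higher and 168 lower in fetal, and 201 differed by more than 2-fold. Loci with 3 transcripts passed at 51.6%, loci with 2 at 49.7% and loci with 1 at 42.9%. The median log2 difference was 0.08 over the 678 and 0.05 over all loci, and the median absolute difference 0.67 and 0.71. Between fetal and TAC 341 passed (174 higher and 167 lower), against 45.5% of all. When libraries were scaled to equal totals, which moved the median of all loci from 0.05 to 0.19, 308 passed between fetal and Sham, 182 higher and 126 lower. Of all 14206 loci tested at equal totals 5858 passed. With reference transcripts only in the sum, 85 of 582 loci passed between fetal and Sham, where 2013 of all 12612 did.

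Of the 102 named loci, 25 were higher and 29 lower in fetal than in Sham ventricle, against 3179 higher and 3266 lower of all 14191. The role groups used for them were set with the values known, so their counts are descriptions. Of these 54 calls, 4 higher (Camk2b, Cetn4, Elavl4 and Robo2) and 10 lower ones (Abcb9, Mettl8, Adcyap1r1, Q4KLJ7_RAT, Aox4, Ceacam1, HEPS_RAT, Susd2, Sytl2 and Ptprt) were at loci that met the filter on low levels only through the group where they are high, so they had to differ. Ptprt also missed the threshold with the replicate block (limma adjusted p = 0.0555). Among all 344, 19 higher and 31 lower loci met that filter only through the group where they are high. The role counts given here and below include such loci. Cytoskeletal genes had the most higher members, with 7 of 10 higher, 1 lower and a median log2 difference of 1.34, and the counts were the same at equal library totals. Epb4.1l3, a band 4.1 protein that ties the membrane to actin, stood at 1.42, 1.64 and 1.65 in Sham, 1.90, 1.43 and 1.3 in TAC and 37.7, 31.9 and 33.0 in fetal libraries. Its log2 difference was 3.77 ± 0.18 (SE; limma adjusted p = 3.32e-06), with no overlap between fetal and adult libraries. Crmp1, a tubulin-binding protein of growing axons, rose from 1.76 ± 0.355 (SD, n = 3) to 7.49 ± 0.965. Fnbp1l, which couples membrane curvature to actin assembly, rose from 12.7 ± 2.69 to 32.7 ± 3.44. Epb4.1l5, Arhgap6 and Eml4 were also higher. Cetn4, counted among the 7, had to differ, and with a pseudocount of 0.1 it no longer passed (limma adjusted p = 0.0897). Schip1 was lower, 77.3 ± 8.62 in fetal against 150 ± 8.93 in Sham and 186 ± 27.5 in TAC (log2 -0.95 ± 0.15 SE, limma adjusted p = 0.00106).

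Among 10 loci of secreted, matrix and adhesion proteins, 3 were higher and 4 lower in fetal ventricle, and at equal library totals 3 and 1. Postn encodes periostin, a matrix protein of developing valves and of activated fibroblasts. Its level was 23.6, 7.32 and 8.0 in Sham, 18.2, 9.24 and 23.2 in TAC and 357, 210 and 228 in fetal libraries. Fetal libraries lay above all adult ones (log2 4.4 ± 0.47 SE, limma adjusted p = 0.000147), while 4 of the 5 fibroblast markers were lower there and Postn itself was the other. Tgfb2, a growth factor of the TGF-beta family, stood at 6.45 ± 1.98 (SD, n = 3) in Sham, 10.3 ± 4.81 in TAC and 26.3 ± 10.4 in fetal libraries (log2 1.84 ± 0.41 SE, limma adjusted p = 0.00674). With reference transcripts only, the Tgfb2 difference turned to -0.46. Robo2, a receptor for Slit guidance proteins, was also higher. Masp1 was lower, with 69.9 ± 11.3 in Sham, 75.9 ± 14.5 in TAC and 16.8 ± 2.67 in fetal libraries (log2 -1.99 ± 0.19 SE), as were Adam15, Mfge8 and Ceacam1.

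Signalling loci gave 3 higher and 2 lower of 12. Grb10 and Rcan2, given above, were the largest in each direction. Akap12, a scaffold for protein kinase A, rose from 20.6 ± 5.52 (SD, n = 3) in Sham to 40.6 ± 1.94 in fetal ventricle. Camk2b, a calcium and calmodulin dependent kinase best known from brain, was low throughout, at 0.246 ± 0.109 in Sham, 0.159 ± 0.276 in TAC and 1.41 ± 0.246 in fetal libraries. It met the filter on low levels through the fetal libraries alone, and with a pseudocount of 0.1 it no longer passed (limma adjusted p = 0.0586). Adcyap1r1, the receptor of the neuropeptide PACAP, was lower in fetal ventricle. Cxcr4, Strn3, Ntrk3, Bcar1, Camkk2, Sh3rf1 and Cdc2l6 did not pass.

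Transcription and chromatin loci gave 4 higher and 4 lower of 13, and 4 and 2 at equal library totals. Relb, a subunit of NF-kappaB, was at 12.3 ± 1.65 (SD, n = 3) in Sham, 10.3 ± 3.04 in TAC and 2.28 ± 0.45 in fetal libraries (log2 -2.03 ± 0.23 SE, limma adjusted p = 0.00022). Hdac5, a histone deacetylase that restrains hypertrophic genes, was at 81.3 ± 3.67 in Sham, 77.8 ± 4.0 in TAC and 45.7 ± 10.6 in fetal libraries (log2 -0.84 ± 0.16 SE). Phc1, a Polycomb protein, rose from 10.3 ± 1.46 in Sham to 18.9 ± 1.59 in fetal ventricle, and Med14, Atf2 and Bach2 were higher as well. Arid3b and Ets1 were lower, though not with the replicate block (limma adjusted p of 0.0576 and 0.0634).

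Of 4 loci of ion channels, pumps and partners, 1 passed. Kcnip2_v2 encodes KChIP2, the subunit that brings the transient outward potassium channel to the surface of heart muscle cells. Its level was 1026, 806 and 804 in Sham, 721, 589 and 585 in TAC and 13.7, 38.4 and 42.1 in fetal libraries. Fetal values lay far below adult ones (log2 -4.90 ± 0.37 SE, limma adjusted p = 2.32e-05). All TAC values lay below all Sham values, a log2 difference of -0.47 that did not pass the test. Within the adult locus ENSRNOT00000024750 held 25.6% to 57.1% and ENSRNOT00000024709 15.7% to 30.7%, and the latter was at 0 in fetal libraries (adjusted p = 0.144 by limma for fetal minus Sham).

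Metabolic and transport loci gave 1 higher and 3 lower of 9. Abcb9, a lysosomal peptide transporter, was at 7.66, 7.49 and 8.51 in Sham, 8.39, 10.8 and 5.84 in TAC and 0.619, 1.07 and 0.849 in fetal libraries, all of which lay below all adult ones. It met the filter on low levels through the adults alone, so it had to differ. Acss2, which makes acetyl-CoA from acetate, was at 75.7 ± 15.8 (SD, n = 3) in Sham and 16.4 ± 3.84 in fetal libraries, but with reference transcripts only its adjusted p was 0.491. Aox4 was lower and Alg6 higher. Of 8 membrane traffic loci 3 were lower (Ap1s2, Flot2 and Sytl2) and none higher, and at equal library totals 2 were lower and 1 higher. Of 6 loci of mitochondrial translation and RNA, Guf1 and Mrpl1 were lower, Mettl8 was listed at 0 in all fetal libraries and Elavl4 was listed at 0 in all adult ones. Both of these met the filter on low levels through the group with values, so they had to differ and no test is given. Susd2, a membrane protein, was at 14.7 ± 3.45 in Sham, 14.7 ± 2.96 in TAC and 0.429 ± 0.20 in fetal libraries. It also met that filter through the adults alone.

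**Figure D4:**
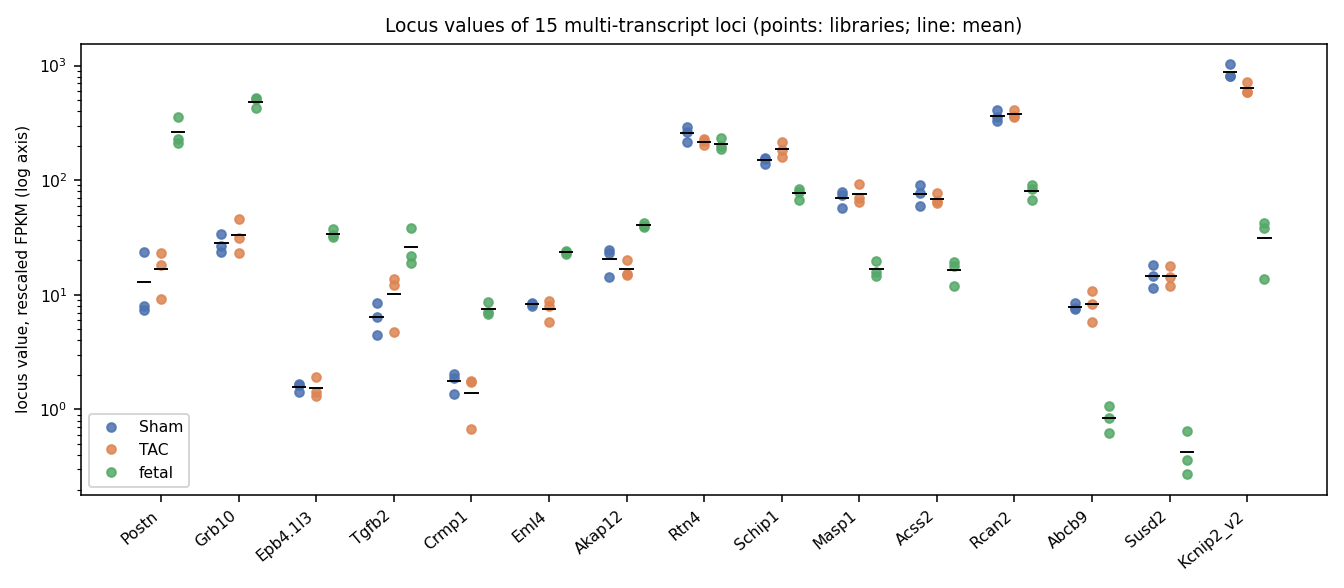
Level of 15 named or positioned loci in each library (points, rescaled FPKM, log axis) by group, with the group mean as a line. Grb10 and Postn lie higher in all 3 fetal libraries than in any adult library, Kcnip2_v2 and Rcan2 lie lower, and Sham and TAC points lie close together at most of the loci drawn.

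Between TAC and Sham the level of none of the 678 loci passed the test by limma, where 0.0211% of all loci tested did. At an unadjusted p below 0.05 there were 29 (4.28%; 13 higher and 16 lower in TAC), against 4.30% of all loci tested. The smallest p was at an unnamed locus with 4 transcripts (chr2:115599466-116006623), with levels of 10.5, 11.8 and 17.0 in Sham and 24.9, 24.8 and 26.1 in TAC (limma unadjusted p = 0.000913, adjusted p = 1). The TAC values lay above all Sham values there. With only reference transcripts in the sum, 4 of 582 loci passed, where 36 of all 12612 did.

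The loci with the most listed transcripts were varied in kind. The locus with 28 is the mitochondrial genome (positions 1 to 15346), where the gene rows of separate genes were joined, so its shares are those of genes and not of splice forms. The locus with 11 transcripts (chrX:159784796-159991345) had low levels, with means of 2.50 ± 0.767 (SD, n = 3) in Sham, 2.71 ± 0.611 in TAC and 0.928 ± 0.206 in fetal libraries. Its entropy was high, 1.42 ± 0.683, 2.08 ± 0.364 and 1.86 ± 0.749 bits. At a locus with 10 transcripts on chromosome 1 (chr1:212876675-212935373) the assembled class held 100% in all 9 libraries, and the level was 28.4 ± 1.5 (SD, n = 3) in Sham, 35.2 ± 1.34 in TAC and 3.82 ± 0.872 in fetal libraries. Loci labelled with small nuclear or nucleolar RNAs (U6 and a group of SNORD genes) likewise join separate genes.

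The heart genes best known for splicing switches were mostly not among these loci. Of 33 sarcomere and Z disc genes, 30 splicing regulators, 30 signalling genes and 16 metabolic genes looked for by symbol, none was a member. Of 21 genes of calcium handling and ion channels, Camk2b and Atp2b1 were members under these symbols, and of 24 genes of the cytoskeleton and adhesion Rtn4 and Postn were. Kcnip2, also among the 21, was looked for under that symbol and is a member as Kcnip2_v2. Since 615 of the 822 loci have no name in the files, such genes may lie among the unnamed ones. Of the 144 loci not tested for level, 39 were at 0 in all libraries. Those with a symbol that were not tested numbered 82, among them Pax6, Map2, Nrcam, Cacna1b, Htr2c, Col2a1 and Runx2, genes best known from brain, eye and skeleton.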

How the data were processed

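RNA libraries were made with the Illumina TruSeq kit from 5 µg of RNA and sequenced on the Illumina GAIIx, per the labels' protocols. Per the submitters' processing notes the authors used TopHat 1.3.1, Cufflinks 1.0.3 and Cuffdiff (version not given in the sources used here) with build rn4. The authors deposited FPKM values with confidence bounds per gene row and per isoform, 2 files per library. The deposited FPKM carry a further constant that differs between libraries, so they were rescaled by the median of ratios over 13149 loci above 0 in all libraries and at least 200 nt long, and then by 1 common factor to a mean library total of 1000000. Depth is known only as the fragment number that the confidence bounds imply.

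A locus level is the sum of all its isoforms. Level tests used log2(value + 1) at loci of at least 1 in at least 3 libraries and at least 200 nt long, and a fold change on this scale understates changes of low loci. Share tests used log2((transcript + 1)/(rest of locus + 1)) at loci whose mean was 3 or more, for a mean share of 5% to 95%. Entropy was tested at loci with the same mean and a value above 0 in all libraries. Each was fitted with limma 3.58.1 (lmFit, then eBayes with trend, in R 4.3.3) on all 9 libraries with group as the only term, and p-values were adjusted by Benjamini and Hochberg over the whole table with a threshold of 0.05. The scripts were checked on simulated data.

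An identifier is listed in a library either plain or with the suffix for an assembled extension, never both, and both forms were counted as 1 transcript. The written plan had named this as the alternative and separate counting as the main choice, so both are given. Same-numbered libraries deviated together in level (correlations 0.137 to 0.511 over all tested loci, across genes, which are not independent replicates), less so in the shares of the 1142 tested transcripts (-0.084 to 0.247). The reported fits have group as their only term and do not use this pairing. A second fit took the number as a block, and its values stand beside the named calls it changes. With the block 1 transcript passed by share in each comparison and no locus passed by entropy.

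The loci and gene lists were chosen with earlier results of these data known. Named transcripts and loci are those that passed by share (at most 10 per comparison by difference in mean share), the 10 loci with the most transcripts, the 5 highest and 5 lowest mean entropies among loci with a symbol and a mean of at least 10, loci whose dominant transcript differs between fetal and adult libraries, and members on fixed lists. Other loci named by level, entropy or smallest p were chosen after their values were seen.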

Additional observations from a re-analysis of the deposited data

How the results depend on the processing

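Counts of transcripts passing by share are given in the order fetal minus Sham, TAC minus Sham, fetal minus TAC (28, 1 and 38 as reported). With a pseudocount of 0.1 they were 18, 1 and 20, with no filter on the locus mean 81, 7 and 101, with a mean of at least 10 15, 1 and 28, with reference transcripts only 13, 0 and 22, with extended entries apart 17, 2 and 20, with replicates 2 and 3 only 0, 0 and 0, and with at least 3 in every library (added after seeing the data) 2, 1 and 3. The replicate block gave 1 in each. Over all transcripts tested the counts were 59, 2 and 77 of 6457 with the pseudocount of 0.1. They were 359, 24 and 437 of 9667 without the filter and 43, 3 and 77 of 4610 with a mean of at least 10. With reference transcripts only they were 39, 0 and 55 of 5126, and with extended entries apart 91, 7 and 107 of 5237. With at least 3 in every library they were 11, 3 and 16 of 5036. Entropy counts (9, 3 and 9) became 1, 1 and 0 with reference transcripts only, 1, 1 and 1 with extended entries apart, and 0 in each with the replicate block and with replicates 2 and 3 only. With at least 3 in every library 5 passed between fetal and TAC, where 24 of all 3514 loci did. Over all loci tested the entropy counts were 3, 1 and 2 of 1959 with reference transcripts only. They were 7, 6 and 7 of 4164 with extended entries apart. Level counts (344, 0 and 341) became 85, 4 and 89 of 582 with reference transcripts only, and 340, 0 and 341 of 678 with the replicate block. Over all loci tested they were 2013, 36 and 2107 of 12612 with reference transcripts only. With the replicate block 6691, 3 and 6746 of all 14191 passed. Loci with 1 dominant transcript (73) became 12 with extended entries apart and 110 with replicates 2 and 3 only, and loci with a fetal to adult switch (2) became 0 and 9.

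Leaving out each library in turn gave 0 to 33, 0 to 2 and 1 to 37 by share, 0 to 9, 0 to 4 and 0 to 9 by entropy, and 267 to 344, 0 to 0 and 269 to 337 by level. It gave 77 to 84 loci with 1 dominant transcript and 2 to 5 with a switch. The median entropy difference ran from -0.0076 to 0.0195 bits for fetal minus Sham and from -0.0469 to -0.0116 for TAC minus Sham. Fetal minus Sham turned to -0.0063 without fetal replicate 1, -0.0019 without Sham replicate 2 and -0.0076 without Sham replicate 3, and TAC minus Sham to 0.0364 with extended entries apart. The share of ENSRNOT00000019772 turned to -0.61 in both fetal comparisons with extended entries apart. With reference transcripts only, the level of Tgfb2 turned to -0.46 and that of LOC680726 to -0.60. The cause of these changes was not tested.

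Limits: 3 libraries a group, 6 residual degrees of freedom, shares that rest on a model of reads per transcript, and depth that was lowest in TAC.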

Other observations

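Beside the smallest p described above, 4 more loci had the smallest unadjusted p between TAC and Sham in level, all unnamed and none past the adjusted threshold by limma. At chr8:73052287-73817764 the level was 2.55, 2.72 and 3.07 in Sham and 8.64, 4.78 and 8.33 in TAC. At chr11:82492975-82529639 it was 10.6, 6.63 and 6.78 in Sham and 0.938, 2.44 and 4.47 in TAC. At chrX:69805919-71671404 it was 18.2, 37.0 and 24.7 in Sham and 52.4, 39.5 and 50.6 in TAC. At chr1:195263487-195303244 it was 4.11, 9.87 and 4.44 in Sham and 1.76, 1.05 and 3.36 in TAC. Sham and TAC values do not overlap at any of these 4 loci.

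The mitochondrial locus varied widely inside groups. Its level was 83192, 56617 and 84364 in Sham, 209538, 78754 and 67021 in TAC and 192917, 56318 and 41764 in fetal libraries, and the groups overlap.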
